A study of Mus musculus with 12 samples.

Results

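The hexokinases and phosphofructokinases are the enzymes that commit glucose to glycolysis, and their transcripts were compared isoform by isoform between APT121 and wild type mouse prostate. The group was chosen by name, as the hexokinase genes Hk1, Hk2 and Hk3, the phosphofructokinase genes Pfkl, Pfkm and Pfkp, and the 4 genes Pfkfb1 to Pfkfb4 of the bifunctional enzymes that make and break fructose 2,6-bisphosphate. Of these 10 genes, 9 had a transcript cluster of their own among the 19935 genes tested, and Pfkfb1 is not analysed here. Total RNA of the anterior prostate, the lobe pair that lies against the seminal vesicles, was hybridised to Affymetrix arrays that read whole transcripts. APT121 males carry T121, a fragment of the SV40 large T antigen that inactivates the pRb family, in prostate epithelium under the probasin promoter, and their samples are labelled as PIN (prostatic intraepithelial neoplasia) lesions. Wild type males are labelled normal. Mice of both groups descend from crosses of C57BL/6J with DBA/2 (labelled B6D2F3), had eaten the AIN93G diet from 3 weeks of age and were 12 weeks old. Each array holds RNA pooled from 2 mice, which gives 4 APT121 pools (8 mice) and 8 wild type pools (16 mice), so p-values measure the spread between pools of whole lobes and not between mice.

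Hexokinases phosphorylate glucose as it enters the cell and so trap it there. Hk1 is the isoform of most tissues, Hk2 the inducible isoform of muscle, fat and many tumours, and Hk3 an isoform found mainly in blood cells of the myeloid line. Phosphofructokinase works as a tetramer of the liver (Pfkl), muscle (Pfkm) and platelet (Pfkp) subunits and is the main control point of glycolysis, and fructose 2,6-bisphosphate, which the Pfkfb enzymes set, is its strongest activator. Pfkfb3 is the isoform with the highest kinase activity relative to its phosphatase activity. Prostate epithelium is known for secreting citrate, which is itself an inhibitor of phosphofructokinase.

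The stretches of 250 bases upstream of the annotated start sites are shown for Hk2, Pfkl and Pfkfb3, which had the 3 largest rises among these genes. They are from RefSeq (GRCm38.p6), written from 5′ to 3′ on the gene's strand, and capitals mark the core of the hypoxia response element, ACGTG, read on both strands.
Hk2, chr6:82774455-82774704, minus strand: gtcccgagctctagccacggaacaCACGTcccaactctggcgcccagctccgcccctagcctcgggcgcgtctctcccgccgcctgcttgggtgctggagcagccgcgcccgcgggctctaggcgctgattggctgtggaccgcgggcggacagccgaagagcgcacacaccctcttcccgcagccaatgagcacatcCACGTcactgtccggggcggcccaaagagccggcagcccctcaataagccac
Pfkl, chr10:78009808-78010057, minus strand: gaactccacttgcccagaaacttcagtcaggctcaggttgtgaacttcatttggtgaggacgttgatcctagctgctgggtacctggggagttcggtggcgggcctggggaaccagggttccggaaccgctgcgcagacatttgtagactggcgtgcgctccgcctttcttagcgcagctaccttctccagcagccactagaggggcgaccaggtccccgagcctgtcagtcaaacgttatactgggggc
Pfkfb3, chr2:11553930-11554179, minus strand: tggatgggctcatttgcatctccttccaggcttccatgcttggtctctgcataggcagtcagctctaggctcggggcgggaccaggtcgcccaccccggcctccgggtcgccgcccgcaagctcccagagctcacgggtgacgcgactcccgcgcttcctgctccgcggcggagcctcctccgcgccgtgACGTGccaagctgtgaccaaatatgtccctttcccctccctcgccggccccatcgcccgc
Pfkfb3, chr2:11502091-11502340, minus strand: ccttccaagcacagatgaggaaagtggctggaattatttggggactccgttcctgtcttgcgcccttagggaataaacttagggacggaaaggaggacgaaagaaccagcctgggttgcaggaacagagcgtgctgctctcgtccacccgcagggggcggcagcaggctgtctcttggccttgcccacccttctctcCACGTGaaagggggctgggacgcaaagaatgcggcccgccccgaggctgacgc
Hk2 held this core 2 times and Pfkl 0 times, and the E box CACGTG in the second Pfkfb3 window contains it on both strands. The 16 windows of the 9 measured genes overlap in part, and 8 held the core. Of the 32851 windows in the RefSeq table, 16.6% held it. The 8 were windows of Hk2, Hk3, Pfkm, Pfkfb2 and Pfkfb3, while those of Hk1, Pfkl, Pfkp and Pfkfb4 held no core. Genes that rose and genes that fell were in both sets. An E2F site, searched on both strands as TTTCCCGC, TTTCGCGC, TTTGCCGC or TTTGGCGC, was in 0 of the 20 windows of all 10 genes and in 1.86% of windows in general. A match is a match of letters, and the arrays do not read binding.

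Isoforms moved in different directions within the phosphofructokinase and Pfkfb families, while the hexokinase genes Hk1 and Hk2 both rose. The rise of Hk1 depends on the choice of its transcript cluster. In the Pfkfb family, the calls of Pfkfb3 and Pfkfb2 were lost when some single pools were left out. Hk2 rose 11.1-fold in APT121, and Pfkl (1.93-fold), Hk1 (1.53-fold) and Pfkfb3 (2.46-fold) also rose. Pfkm fell 2.64-fold, and Pfkfb4 and Pfkfb2 fell by smaller amounts. Hk3 and Pfkp did not pass the test. By limma, with p-values adjusted over all genes and a threshold of 0.05, 4 of the 9 genes were higher and 3 lower. The background is high in this comparison. Of all genes, 52.8% passed, 22.8% higher and 30.0% lower, and these are the shares to read the counts against. A difference of at least 2-fold was called for 7.69% of all genes, and for 5.74% in the higher direction. Here it was called for Hk2 and Pfkfb3 (higher) and for Pfkm (lower). The median difference over all genes was -0.09. Below, values are log2 intensities, differences are APT121 minus wild type on that scale ± SE, and means are ± SD over 4 APT121 and 8 wild type pools. The array gives each transcript cluster its own scale, so levels of different genes were not ranked.

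**Figure D1:**
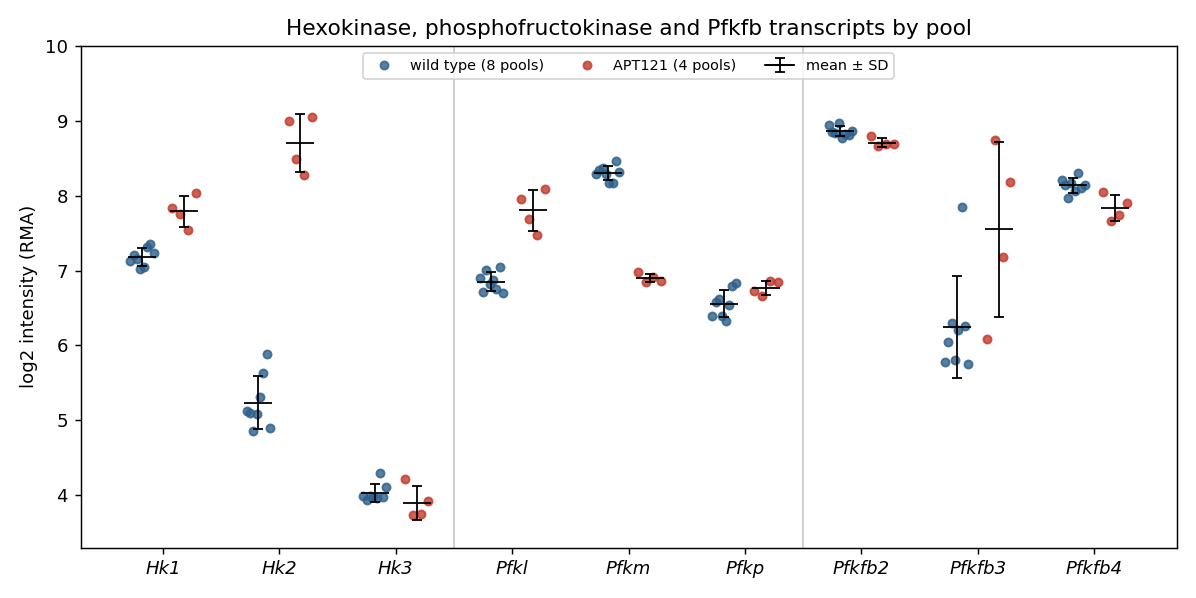
Log2 intensity (vertical axis) of the 9 measured genes (horizontal axis) in each of 8 wild type (blue) and 4 APT121 (red) pools, with group means and SD as black bars. Hk1, Hk2 and Pfkl are higher and Pfkm is lower in all 4 APT121 pools than in any wild type pool, and Pfkfb3 is spread widely in APT121.

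Hk2 (transcript cluster 10545588) was at 9.00, 8.48, 8.28 and 9.05 in APT121 pools 1 to 4, and ran from 4.86 to 5.89 with a median of 5.11 in wild type. The lowest APT121 pool thus lay above the highest wild type pool, wild type 7. The means were 8.70 ± 0.38 and 5.24 ± 0.36, and the difference was 3.47 ± 0.19 (adjusted p = 2.49e-10 by limma). Of all genes, 99.6% had a smaller difference than Hk2. No detection calls were used, so the wild type level was not shown to exceed background and the fold is one of measured intensities. The difference was 3.00 when 16 was added to each intensity before log2.

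Hk1 (10369541) was at 7.83, 7.76, 7.54 and 8.04 in the 4 APT121 pools and between 7.02 and 7.35 (median 7.18) in wild type. The groups did not overlap. The difference was 0.61 ± 0.09 (adjusted p = 3.07e-05 by limma). The APT121 pools stood in the same order for Hk1, Hk2 and Pfkl, with pool 4 highest, then pools 1 and 2, and pool 3 lowest. Other genes had this order too, Slc2a12 and Ppargc1a among them. Summed smooth muscle markers ran in the reverse order, at 6668.2 in pool 4, 7552.3 in pool 1, 8593.4 in pool 2 and 8958.2 in pool 3. The part of tissue composition in this order was not tested.

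Hk1 rests on a choice between its transcript clusters. The array has 2 clusters named for Hk1 alone, and the brighter one (10414661), which choosing the highest mean would take, lists no RefSeq transcript of Hk1. It is tied to Hk1 through a single GenBank entry. The other Hk1 cluster lists that entry too, beside its RefSeq transcripts. So do 16 clusters that name Hk1 together with Rpl17, a ribosomal protein gene. Those 16 clusters had mean levels from 11.29 to 13.01 and differences from -0.33 to -0.09, and the brighter cluster, at 12.66 ± 0.13 in APT121 and 12.78 ± 0.08 in wild type, lay within both ranges with a difference of -0.12 (adjusted p = 0.154 by limma). The cluster with RefSeq transcripts of Hk1 was therefore used. This was decided after seeing the data. Under the highest-mean rule, which had been planned, the sign of Hk1 turns, and 3 of the 9 genes are higher in place of 4.

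Hk3 (10409376) was at 4.21, 3.73, 3.74 and 3.92 in APT121 and between 3.93 and 4.30 (median 3.98) in wild type. APT121 pools 2, 3 and 4 lay just below every wild type pool, and pool 1 lay above all but wild type pool 6. The difference was -0.13 ± 0.09, with a 95% interval of -0.33 to 0.07 (adjusted p = 0.251 by limma). Without APT121 pool 1, the highest of its group, it was -0.23 (adjusted p = 0.0359). Of 10 markers of myeloid cells, in which Hk3 is known to be expressed, 8 were higher and 0 lower, with a median difference of 0.65. Their summed intensity was 755.2 to 1561.3 in APT121 and 581.9 to 720.2 in wild type. Hk3 itself, with means of 3.90 in APT121 and 4.03 in wild type, was not shown to exceed background in either group.

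Among the phosphofructokinase subunits, Pfkl and Pfkm moved in opposite directions. Pfkl (10370376) was at 7.95, 7.69, 7.48 and 8.09 in APT121 and between 6.70 and 7.04 (median 6.85) in wild type. Every APT121 pool lay above every wild type pool. The difference was 0.95 ± 0.10 (adjusted p = 1.20e-06 by limma). Pfkm (10426557) was at 6.98, 6.85, 6.92 and 6.87 in APT121 and between 8.17 and 8.46 (median 8.30) in wild type. Here every APT121 pool lay below every wild type pool, and the pools of each group lay close together. The difference was -1.40 ± 0.07 (adjusted p = 5.40e-11 by limma), and 0.828% of all genes had a lower one. Groups that do not overlap were found for 4 of the 9 genes, and for 34.6% of all genes.

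Pfkp (10407481) was at 6.72, 6.66, 6.86 and 6.84 in APT121 and between 6.33 and 6.83 (median 6.56) in wild type. APT121 pools 3 and 4 lay above every wild type pool, and pools 1 and 2 lay among them. The difference of 0.21 ± 0.09 did not pass (95% interval 0.01 to 0.41, adjusted p = 0.0734 by limma). It passed without wild type pool 7 (0.24, adjusted p = 0.0375), without wild type pool 8 (0.25, adjusted p = 0.0291) and against wild type pools 1 to 4 alone (0.27, adjusted p = 0.0207), and came to 0.05 when the arrays were quantile normalised again.

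Muscle markers fell in the same direction as Pfkm, the muscle subunit. All 8 smooth muscle markers were lower in APT121, with a median difference of -0.68 and a range of -0.97 to -0.23, and their summed intensity was 6668.2 to 8958.2 in APT121 and 11041 to 12745.3 in wild type. Of 8 skeletal muscle markers, 4 were lower and 0 higher, with a lowest difference of -0.72. Of the myosin genes that define skeletal muscle, Myh1 was at 3.54 in APT121 and 3.62 in wild type, Myh2 at 3.61 and 3.67, and Myh4 at 3.40 and 3.51. The fall of Pfkm was larger than that of any of these 16 genes, and the part of muscle in it was not tested. In RNA of whole lobes, fewer cells of a type and less RNA per cell cannot be told apart.

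**Figure D2:**
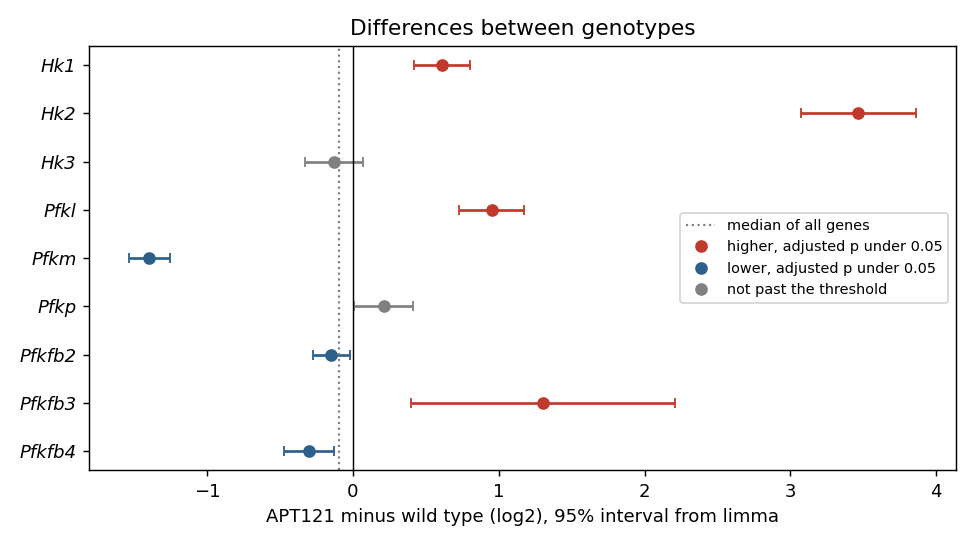
APT121 minus wild type difference (log2, horizontal axis) of each measured gene (vertical axis) with its 95% interval from limma. Hk2 stands at 3.47 and Pfkm at -1.40, the interval of Pfkfb3 is the widest, and the dotted line marks the median of all genes at -0.09.

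The Pfkfb genes had smaller or more variable differences. Pfkfb3 (10480035) was at 6.08, 8.74, 7.19 and 8.19 in APT121 pools 1 to 4 and between 5.75 and 7.85 (median 6.13) in wild type. The groups overlapped, with APT121 pool 1 among the wild type pools and wild type pool 6 above APT121 pools 1 and 3. The means were 7.55 ± 1.17 and 6.25 ± 0.68, and the difference was 1.30 ± 0.43 (adjusted p = 0.0179 by limma), with 3 of 4 APT121 pools above the wild type median. The call was lost without APT121 pool 2 (0.90, adjusted p = 0.0935) or pool 4 (1.09, adjusted p = 0.0668), and the exact permutation test over the 495 groupings of the pools, two-sided, gave p = 0.0525.

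Transcripts of the seminal vesicle varied between pools along with Pfkfb3. The summed intensity of 8 seminal vesicle genes was 15895 in wild type pool 6 and between 100.7 and 194.3 in the other 7 wild type pools, and in APT121 it was 1563.2, 17971.3, 11216.6 and 14161.9 in pools 1 to 4. The 4 pools with the highest sums (wild type 6 and APT121 2, 3 and 4) thus had Pfkfb3 levels of 7.19 to 8.74, and the other 8 had levels at or below 6.29. APT121 pool 1, with the lowest sum of its group, had a Pfkfb3 level of 6.08, inside the range of 5.75 to 6.29 of the wild type pools other than pool 6. All 8 genes were at their wild type maximum in pool 6. In APT121 pools 2, 3 and 4, 4 of the 8 (Svs2, Svs4, Svs5 and Pate4, which encode secreted proteins) lay above the other 7 wild type pools, while Svs1, Svs3a, Svs6 and Spinkl did not. As a list, 3 of 8 were called higher and 0 lower. Without wild type pool 6 the difference of Pfkfb3 was 1.53 (adjusted p = 0.00213 by limma), and the part of seminal vesicle tissue in it was not tested. Among the APT121 pools, Hk2 did not vary in this way. It was at 9.00 in APT121 pool 1, with a sum of 1563.2, and at 8.48 in pool 2, with 17971.3. In wild type pool 6 Hk2 was at 5.63, above the wild type median of 5.11 and below the 5.89 of wild type pool 7.

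**Figure D3:**
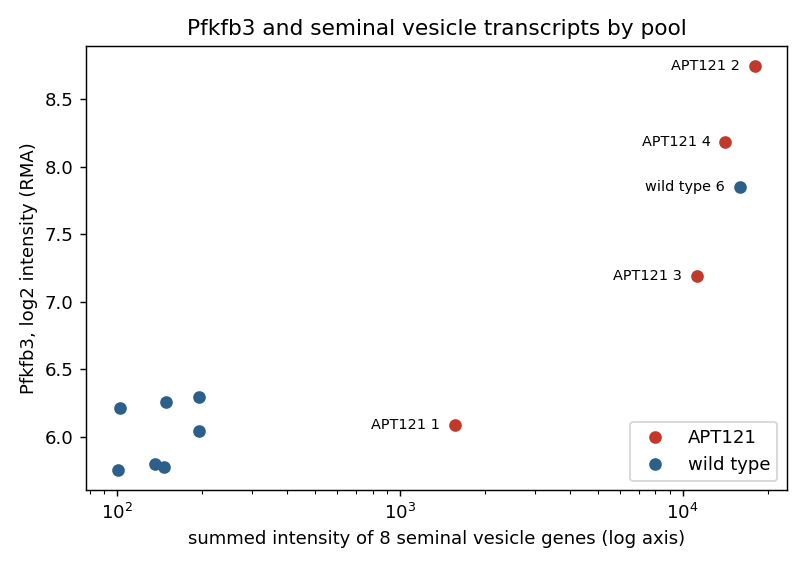
Log2 intensity of Pfkfb3 (vertical axis) against the summed intensity of 8 seminal vesicle genes (horizontal log axis) in the 8 wild type (blue) and 4 APT121 (red) pools. Wild type 6 and APT121 2, 3 and 4 have both high, and APT121 1 lies at the Pfkfb3 level of the other wild type pools.

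Pfkfb4 (10589329), an isoform first described in testis, was at 8.04, 7.66, 7.74 and 7.91 in APT121 and between 7.97 and 8.31 (median 8.14) in wild type. APT121 pools 2, 3 and 4 lay below every wild type pool and pool 1 lay among the lower ones. The difference was -0.30 ± 0.08 (adjusted p = 0.00499 by limma). Pfkfb2 (10357535), the isoform described in heart, was at 8.80, 8.67, 8.69 and 8.69 in APT121 and between 8.76 and 8.97 (median 8.85) in wild type, again with APT121 pool 1 among the wild type pools. Its difference of -0.15 ± 0.06 passed narrowly (adjusted p = 0.0445 by limma). The limma call of Pfkfb2 held in 3 of the 12 fits that leave out 1 pool (without wild type pool 5, wild type pool 7 or APT121 pool 1). It was lost in the other 9, with differences of -0.18 to -0.13. The exact permutation test, not adjusted over genes, gave p = 0.00808 for Pfkfb2 and for Pfkfb4.

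Isoforms were then compared within each family by their log2 ratio in each pool, which asks whether a pair changed unequally. There were 9 such pairs, and p-values are from exact permutation tests over 495 groupings, two-sided and adjusted over the 9 pairs. For all 6 pairs of hexokinases and phosphofructokinase subunits the APT121 and wild type ratios did not overlap, and the test gave its smallest possible p (0.00404, adjusted p = 0.00606 by exact permutation). Pairs of a family share genes, so the 6 are not independent, and Hk1, Hk2, Pfkl and Pfkm each separated the groups alone. Groups did not overlap for 34.6% of all single genes, and the share over all pairs of genes was not computed. Hk2 rose more than Hk1, whose ratio to Hk2 fell by 2.86 ± 0.15, and more than Hk3, by 3.60 ± 0.17. Hk1 rose by 0.74 ± 0.12 relative to Hk3, but by only 0.0072 under the highest-mean cluster rule that had been planned. The ratio of Pfkl to Pfkm rose by 2.35 ± 0.14 and that of Pfkl to Pfkp by 0.74 ± 0.17, and that of Pfkm to Pfkp fell by 1.61 ± 0.07. Pfkl and Pfkp thus differed in their response although both estimates were positive.

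Within the Pfkfb family the ratios overlapped between groups for all 3 pairs. The ratio of Pfkfb3 to Pfkfb4 differed by 1.60 ± 0.69 (adjusted p = 0.0468 by exact permutation). That call held without wild type pool 3, wild type pool 6 or APT121 pool 1 and was lost without any of the other 9 pools, with differences of 1.14 to 2.16 over the 12 fits. Pfkfb2 against Pfkfb3 (-1.45 ± 0.66) and Pfkfb2 against Pfkfb4 (0.15 ± 0.07) did not pass, each with an adjusted p of 0.0525 by exact permutation. Pfkfb2 against Pfkfb3 passed without wild type pool 6 (-1.68) or APT121 pool 1 (-1.97), and Pfkfb2 against Pfkfb4 passed without wild type pool 3 (0.17), APT121 pool 1 (0.19) or APT121 pool 4 (0.18).

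**Figure D4:**
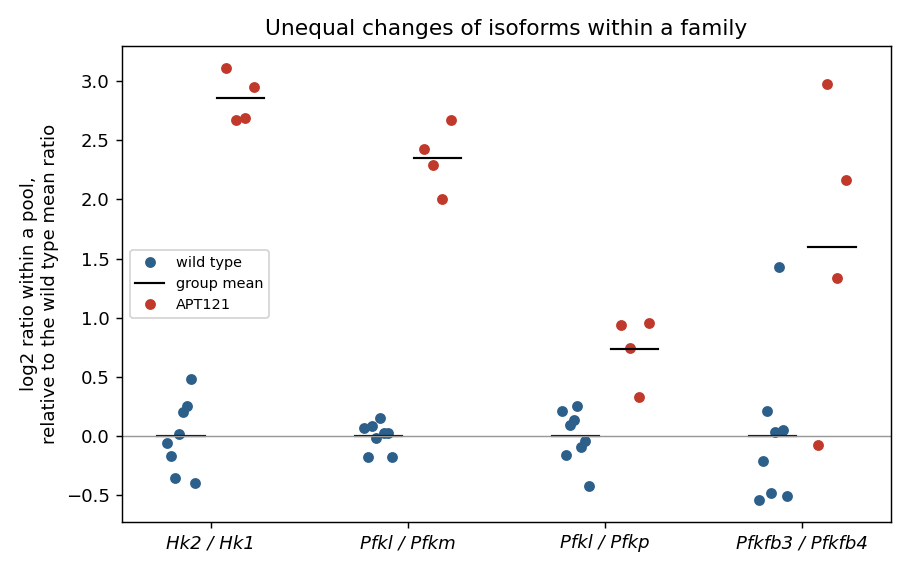
Log2 ratio of isoform pairs within each pool (vertical axis), set to a wild type mean of 0, for 4 of the 9 pairs (horizontal axis), with wild type pools in blue, APT121 pools in red and group means as black lines. The groups are apart for Hk2 to Hk1, Pfkl to Pfkm and Pfkl to Pfkp and overlap for Pfkfb3 to Pfkfb4.

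For the gene with the largest difference in each family, the genes with the most similar profile were sought by the root mean square distance over the 12 arrays, each gene centred on its wild type mean, among 17243 named genes. Being chosen this way, their differences are a description. Nearest to Hk2 were the immunophilin gene Fkbp5 (distance 0.23, difference 3.35 ± 0.15), Strip2 (0.25, difference 3.58 ± 0.11) and Vsig1, a membrane protein of the immunoglobulin superfamily (0.27, difference 3.44 ± 0.08). The median distance from Hk2 was 2.08. Strip2 and Vsig1 had wild type means of 3.66 and 3.15, which were not shown to exceed background. Over the alternatives fitted, their differences came as low as 2.54 and 2.18, and those of Hk2 and Fkbp5 as low as 3.00 and 3.16. Nearest to Pfkm were the ubiquitin ligase gene Rnf149 (0.07, difference -1.44 ± 0.06), the ciliary transport gene Ift20 (0.10, difference -1.38 ± 0.06) and the aminopeptidase gene Lap3 (0.10, difference -1.43 ± 0.07), with a median of 0.77 over all genes.

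Nearest to Pfkfb3 were Plau, which encodes urokinase (distance 0.30), the beta-defensin gene Defb42 (0.41) and the amino acid transporter gene Slc6a14 (0.49), against a median of 1.13. Plau was at 5.50, 8.00, 6.60 and 7.38 in APT121 pools 1 to 4 and at 7.19 in wild type pool 6, with the other wild type pools at or below 6.05. These genes were chosen for their likeness to Pfkfb3 over the same arrays, so their order of pools follows from that choice and their differences are a description. Plau differed by 1.01 ± 0.38 and Defb42 by 1.55 ± 0.58, and without APT121 pool 2 by 0.63 and 0.92. Defb42 was at 3.16, 7.08, 4.38 and 6.07 in the APT121 pools and at 5.60 in wild type pool 6, with the other wild type pools at or below 3.69.

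Other genes of glucose metabolism, its regulators and, for comparison, hypoxia-inducible genes outside glycolysis were described in 8 lists by role, in which 91 of 102 genes were measured. In all, 23 were higher, 30 lower and 38 not past the threshold, with a median difference of -0.07, close to the -0.09 of all genes. Of 9 glucose transporters, 2 were higher and 3 lower (median -0.26). Slc2a12, which encodes GLUT12, was at 7.25, 6.76, 6.50 and 7.62 in APT121 and between 5.34 and 5.98 in wild type, a rise of 1.38 ± 0.17 (adjusted p = 4.09e-06 by limma). Slc2a3, which encodes GLUT3, rose by 0.70 ± 0.14, while Slc2a1, the GLUT1 gene and the usual glucose transporter of dividing cells, fell by 0.42 ± 0.10 (adjusted p = 0.00183 by limma). Slc2a1 was named after its values were seen.

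Of the other sugar kinases, 1 of 4 was called, the ketohexokinase gene Khk, which fell by 0.48 ± 0.08. Hkdc1, a further hexokinase gene, was at 4.23 ± 0.08 in APT121 and 4.25 ± 0.08 in wild type (difference -0.02, adjusted p = 0.820 by limma). Of 6 phosphatases that oppose these kinases, 2 were higher and 0 lower. Fbp1, the fructose bisphosphatase that reverses the phosphofructokinase step, was at 10.69, 10.56, 10.47 and 10.36 in APT121 and between 8.50 and 9.05 in wild type. All 4 APT121 pools were above all wild type pools, and the rise was 1.74 ± 0.12 (adjusted p = 4.95e-09 by limma). Fbp2, the muscle isoform, rose by 0.41 ± 0.11.

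Below the phosphofructokinase step, 7 of 11 genes of lower glycolysis did not pass the test, and 10 of 14 genes of lactate and pyruvate fate fell. Of the 11 measured genes of lower glycolysis, 1 rose and 3 fell (median -0.09). The pyruvate kinase gene Pkm rose by 0.39 ± 0.08 in the cluster that lists its RefSeq transcripts (0.42 in the brighter one), and Bpgm (-0.71 ± 0.19), Aldoa (-0.50 ± 0.08) and Eno2 (-0.41 ± 0.16) fell. The first of these makes 2,3-bisphosphoglycerate, and the others encode an aldolase and an enolase. Of the genes of lactate and pyruvate fate, 3 rose (median of the list -0.42). Ldhb, a subunit of lactate dehydrogenase, was at 5.20, 5.65, 5.23 and 5.39 in APT121 and between 6.74 and 7.65 in wild type, and fell by 1.91 ± 0.14 (adjusted p = 1.14e-08 by limma). Ldha, the other main subunit, fell by 0.59 ± 0.07. The pyruvate dehydrogenase kinase gene Pdk4 fell by 0.82 ± 0.30 (adjusted p = 0.0312 by limma), a call lost without wild type pool 5 (-0.76), APT121 pool 2 (-0.79) or APT121 pool 3 (-0.77).

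Of 18 genes of the branch pathways, 4 rose and 5 fell (median -0.04), with Pgm1, a phosphoglucomutase of glycogen metabolism, down by 0.74 ± 0.10 and Rpia, of the pentose phosphate pathway, up by 0.67 ± 0.08. Of 17 regulators, 8 rose and 3 fell (median 0.23). Ppargc1a, the coactivator PGC-1alpha, was at 7.02, 6.89, 6.39 and 7.42 in APT121 and between 4.71 and 5.08 in wild type, a rise of 2.00 ± 0.13 (adjusted p = 3.90e-09 by limma). Prkaa2, a catalytic subunit of the AMP-activated kinase, rose by 1.19 ± 0.16 and the hypoxia factor gene Hif1a by 0.50 ± 0.06. Of 12 hypoxia-inducible genes outside glycolysis, 3 rose and 5 fell (median -0.03). The histone demethylase gene Kdm3a rose by 1.30 ± 0.09, P4ha2 by 0.44 ± 0.10 and Bnip3l by 0.18 ± 0.07. Adm (-1.11 ± 0.14), Ndrg1 (-0.89 ± 0.10) and Vegfa (-0.40 ± 0.07), which encode a vasodilator peptide, a stress-response protein and an angiogenic factor, fell. P4ha1, a collagen hydroxylase gene, fell from a mean of 7.53 to 6.53, and Ddit4, an mTOR inhibitor gene, from 7.52 to 6.52. These lists were chosen with earlier results of these data known, and genes here beyond the 2 largest of a list were named after their values were seen.

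**Figure D5:**
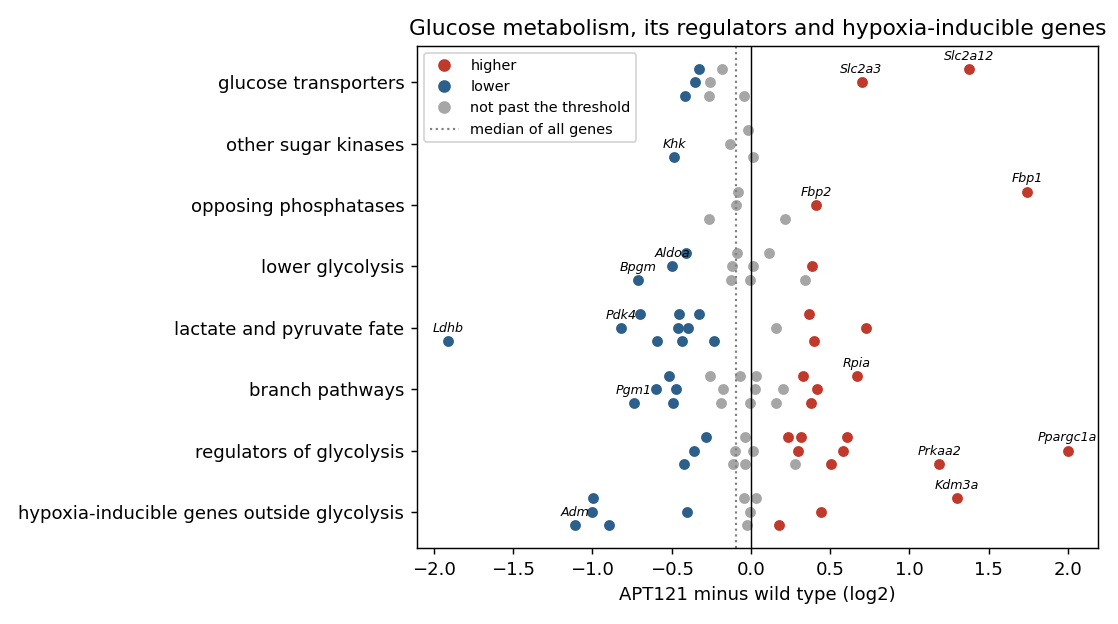
APT121 minus wild type difference (log2, horizontal axis) of 91 genes in 8 lists by role (rows), with red for higher, blue for lower and grey for not past an adjusted p of 0.05, and the dotted line at the median of all genes. The 2 called genes with the largest absolute difference are named in each list (1 in the sugar kinases), and most genes of lactate and pyruvate fate lie left of 0.

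The labelled tissue was checked against markers of its cells. Of 6 measured luminal epithelium markers, 4 were higher and 1, Hoxb13, lower, and their summed intensity was 16997 to 17552.4 in APT121 and 9197.4 to 10832 in wild type. Of 7 adipose markers, 6 were lower, with sums of 153.2 to 191.2 in APT121 and 179.2 to 608.3 in wild type, and all 6 endothelial markers were lower (240.7 to 270.4 against 355.1 to 446). Germ line markers, checked because Pfkfb4 is known from testis, summed to 63.4 to 70.7 and 70.9 to 78.1, with 1 of 4 lower. Without detection calls no marker, those of the germ line included, was shown to exceed background. The part of these cell types in the differences above was not tested.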

How the data were processed

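RNA of 12 pools was measured on Affymetrix GeneChip Mouse Gene 1.0 ST arrays. The authors deposited 1 intensity per transcript cluster on a linear scale, made by RMA (background correction, quantile normalisation, summarisation), per the submitters' processing notes. The software, its version and a genome build are not given in the sources. Array medians were 32.1 to 33.7, and 0 values were missing. Log2 was taken here of the deposited values. Of 28815 clusters, 21780 had 1 gene symbol, 1605 several and 5430 none, and only the first were used. For 998 genes with several clusters, the one with the highest mean among those listing a RefSeq transcript of the gene was used, which differs from the plain highest mean for 36 genes, Hk1 and Pkm among them. This was decided after seeing the data. No filter on low values was applied.

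The test was limma 3.58.1 under R 4.3.3 (genotype as the only term, two-sided, Benjamini-Hochberg over 19935 genes). SAM, which the series' design text names, was not run. limma was tested on simulated data. Exact permutation tests used scipy 1.17.1, over 9 of the 12 planned pairs because Pfkfb1 had no cluster. Genes named were the members, the 2 called genes with the largest absolute difference in each role list, and the 3 nearest profiles of each family's leading gene. Members, lists and tests were chosen with earlier results of these data known. Replicate numbers did not pair the samples.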

Additional observations from a re-analysis of the deposited data

Results flagged for a closer look

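A single pool stood apart from its group, by the gap to its nearest neighbour relative to the group's range, in 7 of the 66 gene and group combinations tested, and chance gives about 1 in 20. The count includes Plau and Defb42, which were chosen for a profile like that of Pfkfb3 over the same arrays, so their flags are not separate from that of Pfkfb3. Wild type pool 6 was high for Pfkfb3 (7.85, the next at 6.29), Bpgm (7.65, the next at 6.98), Plau (7.19, the next at 6.05) and Defb42 (5.60, the next at 3.69). It is the wild type pool with the high sum of seminal vesicle transcripts, whose part was not tested. APT121 pool 1 was high for Pfkfb2 (8.80, the others at 8.67 to 8.69). Rpia was high in APT121 pool 2 (7.12, the next at 6.85) and in wild type pool 2 (6.54, the next at 6.28).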

How the results depend on the processing

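Hk2, Pfkl, Pfkm, and Fbp1, Ldhb, Slc2a12, Ppargc1a, Prkaa2, Kdm3a and Adm kept their direction and call under every alternative fitted. The rule planned for every gene was the highest-mean cluster, and the RefSeq rule used in its place was decided after seeing the data. Under the planned rule Hk1 turned to -0.12, 3 members were higher and 3 lower, the contrast of Hk1 with Hk3 came to 0.0072 and that of Pfkfb3 with Pfkfb4 (1.60) lost its call (adjusted p = 0.0545, exact permutation). A required minimum of 1.5-fold ended the calls of Hk1 (0.61), Pfkfb2 (-0.15), Pfkfb3 (1.30) and Pfkfb4 (-0.30) and left 2 members higher and 1 lower, 5 pathway genes higher and 5 lower, and 1364 genes higher and 524 lower among all genes (4545 and 5983 without it). Without the lowest 50% of genes, which leaves 9967 tested, 3324 were lower. Pfkfb3 lost its call with trend and robust options (1.30, adjusted p = 0.0577), array weights (0.95), wild type pools 5 to 8 alone (1.03) and the exact permutation test (1.30). Pfkfb2 lost its call with array weights (-0.13), wild type pools 5 to 8 alone (-0.11) and the replicate block (-0.19). With replicate number as a block, Pfkp passed (0.27, adjusted p = 0.0316), as against wild type pools 1 to 4 alone (0.27). Apart from Pfkp and Pfkfb2, the block changed no member's call. Wild type pools 5 to 8 have no partner and do not enter the estimate under the block, which called 8811 of all genes, against 8897 with wild type pools 1 to 4 alone and no block and 10528 with all pools. Same-numbered pools correlated at -0.01 to 0.12 in their deviations, and 2 of 4 matched their own number best, so the numbers are not taken as pairs. Pfkfb2 against Pfkfb4 passed after quantile normalisation (0.20) and against wild type pools 5 to 8 (0.21), Pfkfb2 against Pfkfb3 without wild type pools 5, 6 and 7 (-1.80), and Pfkfb3 against Pfkfb4 did not pass against wild type pools 1 to 4 (1.86) or 5 to 8 (1.35). The cause was not tested for any of these. Leaving out 1 pool gave ranges of -0.23 to -0.072 for Hk3, 0.18 to 0.25 for Pfkp, -0.18 to -0.13 for Pfkfb2, 0.90 to 1.79 for Pfkfb3, -1.97 to -1.04 for Pfkfb2 minus Pfkfb3, 0.11 to 0.19 for Pfkfb2 minus Pfkfb4 and 1.14 to 2.16 for Pfkfb3 minus Pfkfb4. Over all alternatives the adjusted p ran from 0.0359 to 1 for Hk3, from 0.0207 to 1 for Pfkp, from 0.00248 to 1 for Pfkfb2, from 0.00137 to 0.462 for Pfkfb3 and from 0.0273 to 0.225 for Pfkfb3 against Pfkfb4. Ratios within a pool were recomputed only under alternatives that can change them; the scaling by array medians cancels, and the block, filters, weights and limma options do not enter. The number of arrays limits the precision, and signal over background is unknown without detection calls.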
